A study of Drosophila melanogaster with 4 samples.

Results

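RPD3 occupancy of 2 gene complexes that pattern the fly nervous system was examined in heads of adult Drosophila melanogaster. The Enhancer of split complex, E(spl), was examined along with the neighbouring gene gro as the 60 kb window of arm 3R from 21820000 to 21880000. The achaete-scute complex was taken as the 80 kb window of the distal X from 255000 to 335000, both on FlyBase release 5. The enriched clusters that overlapped either window were chosen by position alone, though the windows were set with earlier results of these data known. They numbered 2 of the 5550 clusters of replicate 1, 3 of the 5872 clusters of replicate 2, and 2 of the 7386 clusters of the authors' combined list. All of them lay in the E(spl) window. Of the 9 genes in view, ac, sc, l(1)sc, gro, E(spl)m3-HLH, E(spl)m5-HLH, E(spl)m7-HLH and E(spl)m8-HLH lay in the windows. The ninth, ase, began 19.8 kb beyond the end of the achaete-scute window and was followed separately.

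The samples were 2 chromatin immunoprecipitations (ChIP) with antibody Q3451 against RPD3, each tied by the labels to 1 input, from head nuclei of mixed adults of the wild-type strain Oregon-R-modENCODE kept in population cages. No sample carried a mutation or a treatment, so all values describe occupancy in 1 condition. The labels do not say whether replicates 1 and 2 came from separate cages, so their spread may be technical. A cluster list holds no transcript levels, and the head tissue could not be checked against expressed markers. The read depth behind a cluster is unknown, and what a deeper library would have found at either locus cannot be stated.

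RPD3 is the fly class I histone deacetylase, which removes acetyl groups from histone tails as part of corepressor complexes. It is brought to DNA by partner proteins, among them Groucho, the corepressor encoded by gro. In neurogenesis the proneural proteins Achaete, Scute, Lethal of scute and Asense, made from the achaete-scute complex, drive cells towards a neural fate. Notch signalling turns on the E(spl) basic helix-loop-helix (bHLH) genes, whose products recruit Groucho to silence proneural genes. The complexes are therefore linked through Groucho, which products of one recruit to silence genes of the other. They are known mainly from embryos and developing appendages rather than from adult heads.

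In the E(spl) complex RPD3 sat at or near the boundary of E(spl)m8-HLH and gro and left the rest of the complex without a cluster. The replicate 1 cluster there spanned 3336 bp of 3R, from 21866478 to 21869813. That of replicate 2 spanned 3147 bp, from 21866560 to 21869706. In the combined list it ran from 21866508 to 21869816 (3309 bp). The replicates placed its edges 82 and 107 bp apart, and the replicate 2 cluster lay wholly inside that of replicate 1. With genes as placed here, the whole 727 bp interval between the 2 genes was inside the cluster in each list. Gene placement was checked only to about 1000 bp, which is longer than the interval, so this overlap is uncertain.

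Groucho's gene, gro, is 8176 bp long. The cluster reached 2356 bp into it in replicate 1 and 2249 bp in replicate 2, or 28.8% and 27.5% of the gene, at the end that faces E(spl)m8-HLH. The remaining 5820 bp in replicate 1 and 5927 bp in replicate 2 held no cluster. The gene table used gives no strand, so which end carries the promoter was not read from it.

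E(spl)m8-HLH, a Notch target gene that encodes a bHLH repressor, was the 1 bHLH gene of the complex that a cluster touched. The cluster covered 253 of its 769 bp in replicate 1 and 171 bp in replicate 2, or 32.9% and 22.2%, at the end facing gro. As placed, this contact is short. It was lost when gene positions were moved 1000 bp leftwards, about the precision with which release 6 genes could be placed on release 5. With positions moved 1000 bp rightwards it remained, so the covered share of this gene is uncertain. The contact of gro remained under both shifts.

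The authors' score of this cluster, read as a log2 value, was 1.19 in replicate 1, 1.87 in replicate 2 and 1.54 in the combined list. Whether scores share a scale between lists is unknown, so they were ranked within each. The cluster ranked 1009 of 5550 in replicate 1, where 18.2% of clusters scored at least as high. It ranked 173 of 5872 in replicate 2 (2.95%) and 251 of 7386 in the combined list (3.44%). It was above the median score in each list, and its rank was far higher in replicate 2. It was wider than the median cluster of each list (2609 and 2510 bp in replicates 1 and 2), with 31.4% and 30.6% of the clusters of replicates 1 and 2 at least as wide.

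**Figure D1:**
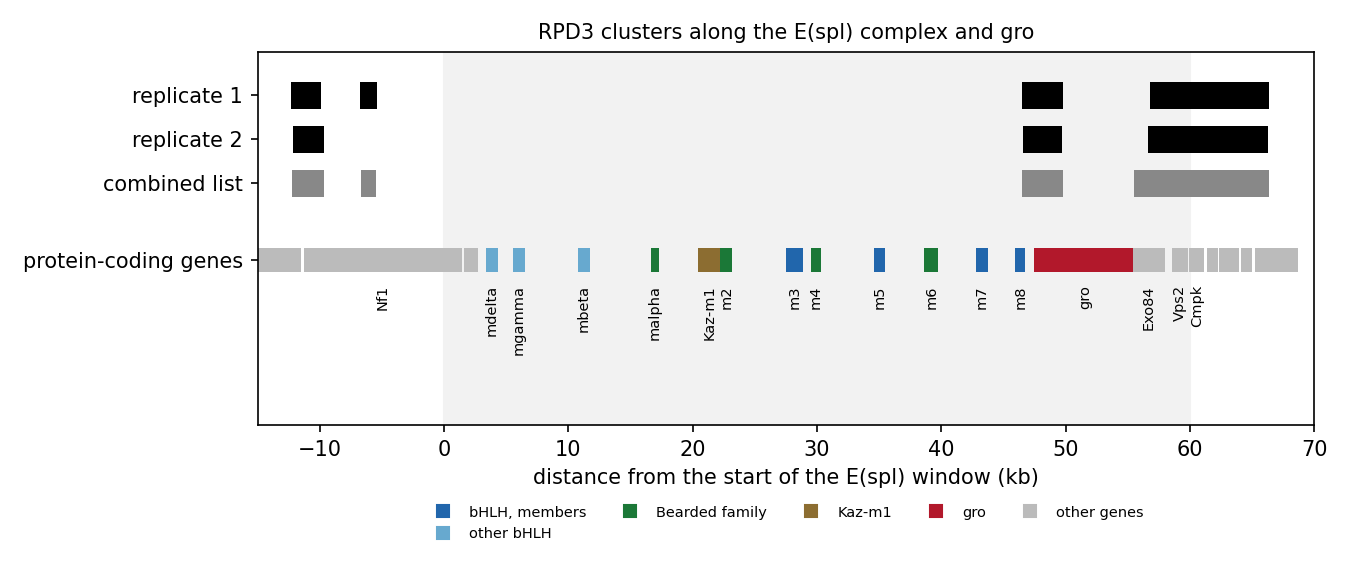
Map of the E(spl) window (grey background), with distance from its start in kb. The upper rows show RPD3 clusters in replicate 1, replicate 2 and the authors' combined list, and the lower row shows protein-coding genes coloured by family, with E(spl) names shortened. Clusters lie at the m8 to gro boundary and from Exo84 rightwards, and the stretch from mdelta to m7 holds none (the 46 bp break between the last 2 clusters of replicate 2 is too small to see).

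None of the other E(spl) bHLH genes was touched. E(spl)m7-HLH was the nearest, ending 2736 bp from the cluster in replicate 1 and 2818 bp in replicate 2. E(spl)m5-HLH lay 11020 and 11102 bp from the nearest cluster in replicates 1 and 2. E(spl)m3-HLH lay 17628 and 17710 bp away. All 3 encode repressors of the same family as E(spl)m8-HLH.

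At the other end of the complex, E(spl)mdelta-HLH, E(spl)mgamma-HLH and E(spl)mbeta-HLH were nearer to a cluster inside Nf1, the gene for a Ras regulator. E(spl)mdelta-HLH was 8759 bp from it in replicate 1, while in replicate 2, which lacked that cluster, its nearest was 12969 bp away. The distances were 10989 and 15199 bp for E(spl)mgamma-HLH and 16184 and 20394 bp for E(spl)mbeta-HLH. The 4 Bearded family genes, whose products inhibit the ubiquitin ligase Neuralized, held no cluster either. The nearest of them, E(spl)m6-BFM, was 6708 bp from a cluster in replicate 1 and 6790 bp in replicate 2. E(spl)malpha-BFM was 22031 and 26241 bp away. Kaz-m1, also part of the complex, was 24268 and 24350 bp away. The 6 long noncoding RNA genes of the window were untouched as well.

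In all, 2 of the 13 genes formed by the complex and gro were touched in both replicates. On arm 3R as a whole, 50.5% of 4206 genes were touched in both replicates (54.9% in replicate 1, 54.2% in replicate 2 and 59.6% in the combined list). Most E(spl) genes are short, and a short gene meets a cluster less easily. Among the 1622 protein-coding genes of 3R up to 2000 bp long, 44.9% were touched in both replicates. The 12 complex genes other than gro are all within that length, and 1 of them was touched. The 13 genes lie side by side and 1 cluster accounts for both contacts, so they are not independent observations.

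**Figure D2:**
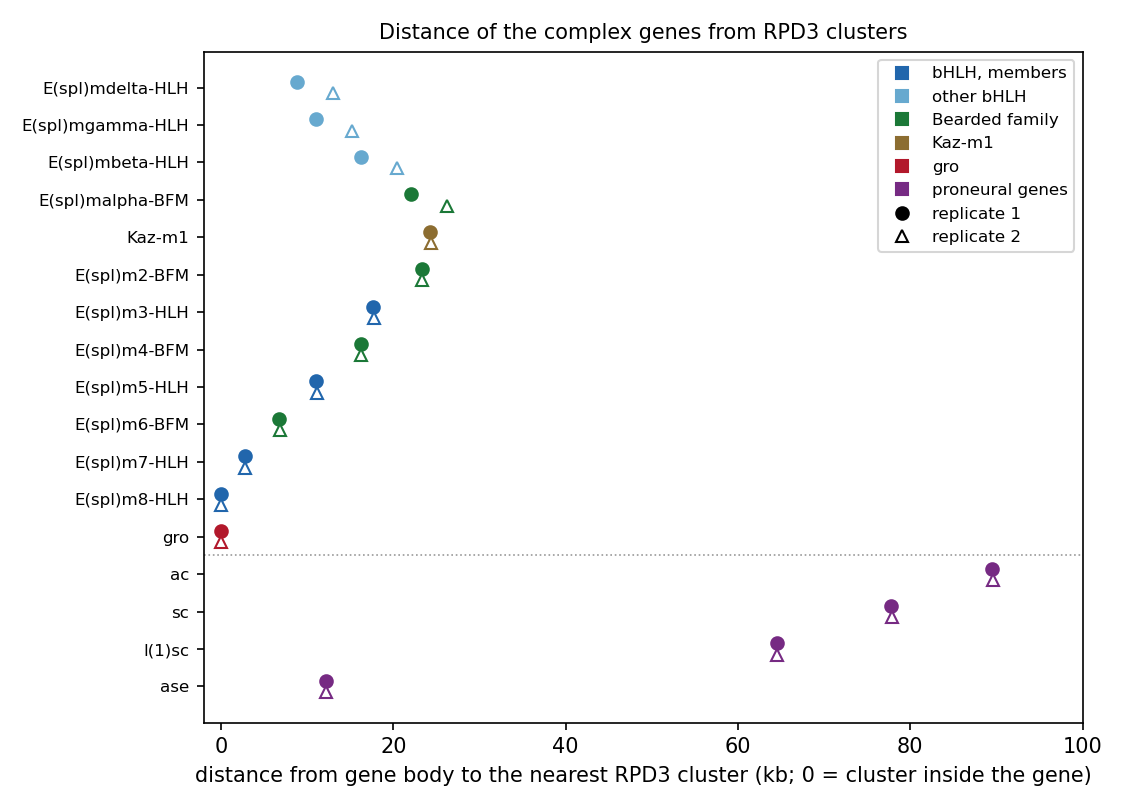
Distance in kb from each gene of the E(spl) complex with gro (above the dotted line) and each proneural gene (below it) to the nearest RPD3 cluster, in replicate 1 (filled circles) and replicate 2 (open triangles), in order along the chromosome. Only gro and E(spl)m8-HLH are at 0, while ac, sc and l(1)sc are 64.5 to 89.6 kb away.

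The remaining occupied part of the E(spl) window belonged to genes beyond gro. In replicate 1 a 9573 bp cluster, from 21876807 to 21886379, touched Exo84, Vps2 and Cmpk and ran 6379 bp past the end of the window. Exo84 encodes a subunit of the exocyst, which tethers secretory vesicles, and Vps2 encodes a subunit of the ESCRT-III membrane-scission machinery. It also touched Sld5, CG14543, Tcs6, PIG-P, RpL34a and Trmt61. RpL34a encodes a ribosomal protein and Sld5 a subunit of the GINS replication complex. Only 1.53% of the clusters of replicate 1 were at least as wide.

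In replicate 2 the same stretch was split by 46 bp. The first cluster ran from 21876634 to 21879890 and touched Exo84 and Vps2, and the second ran from 21879937 to 21886253 and touched Cmpk and the genes beyond it. The score of the first, 2.25, ranked 25 of 5872 in replicate 2, where 0.426% of clusters scored at least as high. The undivided cluster of replicate 1 had a score of 1.21 and ranked 947 of 5550 (17.1%). In the combined list the cluster ran from 21875506 to 21886356, with a score of 1.36, and there it reached 128 bp into the far end of gro. In the replicates it did not touch gro, beginning 1173 bp past its end in replicate 1 and 1000 bp past it in replicate 2. Genes were placed to only about 1000 bp, so whether this cluster meets gro is uncertain in each list.

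Together these clusters covered 6529 bp of the E(spl) window in replicate 1 and 6467 bp in replicate 2, or 10.9% and 10.8%. The cluster at E(spl)m8-HLH and gro made up 51.1% and 48.7% of that length. The first 40 kb of the window, in 10 kb bins, held no covered base in any list, and the last 2 bins were 33.4% and 31.9% covered in replicate 1 and 31.5% and 33.2% in replicate 2.

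The replicates matched closely here in extent. Of the 6702 bp of the window covered in either replicate, 6294 bp were covered in both, or 93.9%. Over the 416 windows of 3R with any covered base the median of this share was 64.8%, and 5 of the 416 (1.2%) reached at least 93.9%.

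In total length the occupied part of the E(spl) window was close to the median of its arm. The median 60 kb window of 3R was 11.6% covered in replicate 1 and 12.3% in replicate 2. Of 464 such windows, 52.2% were covered at least as much as the E(spl) window in replicate 1, 56.9% in replicate 2 and 58.2% in the combined list. Restricting each list to its better-scoring 50% left the E(spl) window at 10.8%, since all its clusters were kept, and 35.9% of 3R windows then reached it.

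**Figure D3:**
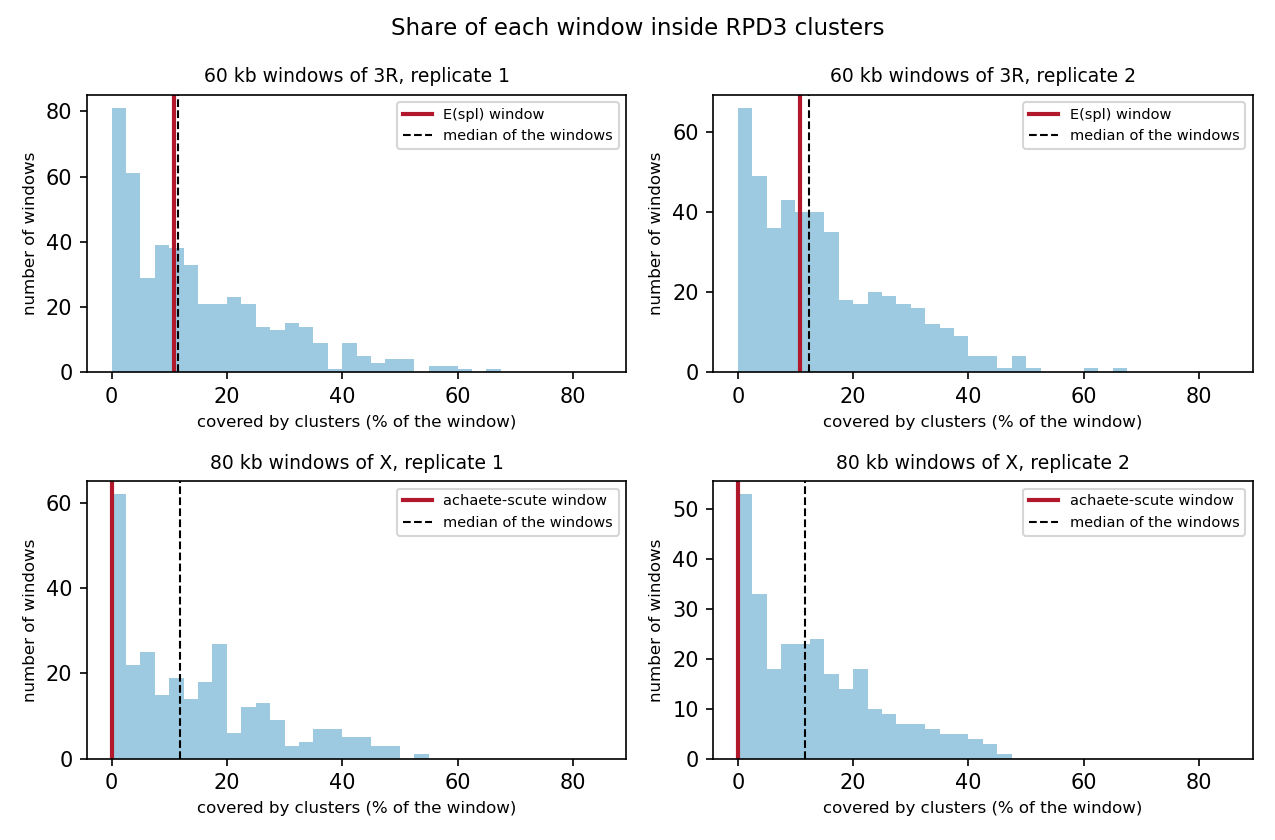
Histograms of the share of each window inside RPD3 clusters (horizontal axis, percent of the window; vertical axis, number of windows), for 60 kb windows of 3R (top) and 80 kb windows of X (bottom) in replicates 1 and 2. The red line marks the E(spl) or the achaete-scute window and the dashed line the median of all windows: E(spl), at 10.9% and 10.8%, lies just under the 3R medians of 11.6% and 12.3%, and achaete-scute lies at 0.

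The window was rich in genes. It held 16 protein-coding genes by midpoint, against a median of 6 over the same 464 windows of 3R. A comparison chosen after these values were seen was made with the 32 windows (6.9%), the E(spl) window included, that held 16 or more. The E(spl) window was covered by 10.9% in replicate 1 and 10.8% in replicate 2, against medians over the 32 windows of 42.2% and 36.3%. Only 1 of the 32 windows was covered less in replicate 1, 2 were in replicate 2, and none was in the combined list, where the lowest of the 32 was the E(spl) window itself at 13.0%.

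The unoccupied part of the complex formed a cluster-free stretch of 51.9 kb in replicate 1 (21814584 to 21866477) and 56.2 kb in replicate 2 (21810374 to 21866559). It held 11 of the 13 genes in full in both replicates, and with CG43116 a total of 12 protein-coding genes. Of the stretches between clusters on 3R, 10.4% were at least as long in replicate 1 and 7.38% in replicate 2, and the E(spl) stretch ranked 133 and 103 by length. Stretches at least as long made up 44.6% of the arm in replicate 1 and 34.9% in replicate 2.

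The E(spl) stretch held many genes for its length. Its 12 protein-coding genes ranked it 10 among the 136 stretches of 3R of at least 50 kb in replicate 1 and 11 among the 127 of replicate 2. The median over these stretches was 3.5 genes in replicate 1 and 3 in replicate 2. Per 100 kb it held 23.1 protein-coding genes in replicate 1, against a median of 3.49, and ranked first. In replicate 2 it held 21.4, against a median of 3.72, and ranked second. The bound of 50 kb was chosen after the lengths were seen and lies just below that of the E(spl) stretch.

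**Figure D4:**
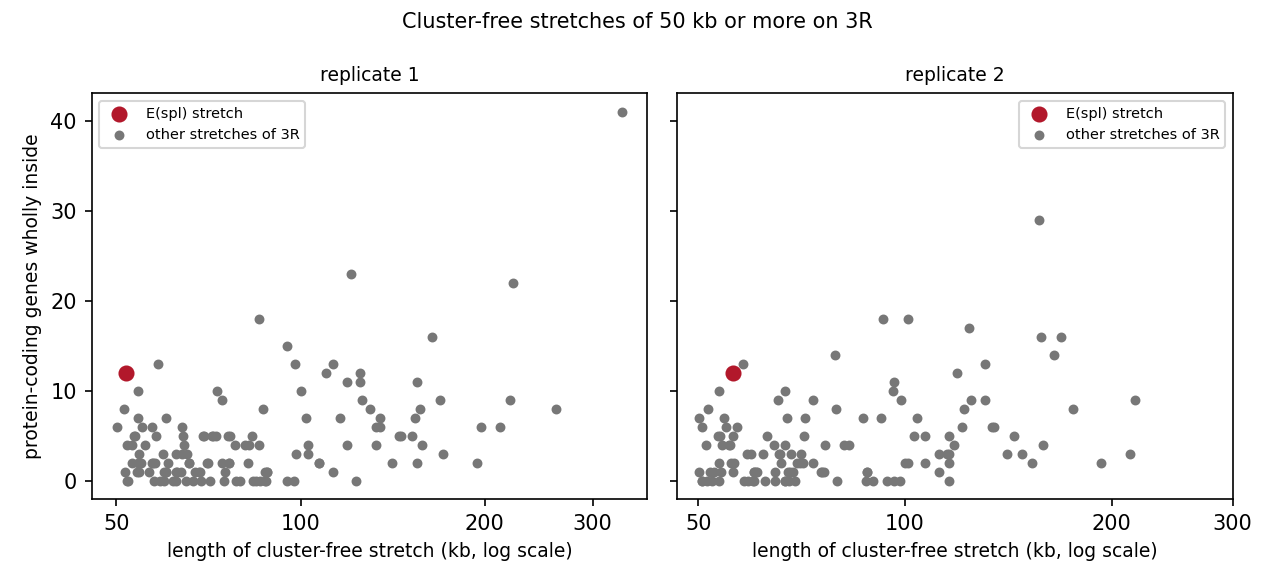
Cluster-free stretches of 50 kb or more on 3R, with length on the horizontal axis (kb, log scale) and the number of protein-coding genes wholly inside on the vertical axis, in replicates 1 and 2. The E(spl) stretch (red) is among the shortest, at 51.9 and 56.2 kb, and holds 12 genes.

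The achaete-scute complex held no RPD3 cluster in any of the 3 lists. Of its 80 kb, 0 bases were covered in replicate 1, in replicate 2 and in the combined list. No cluster means that no region passed the threshold of the authors, whose value is unknown here, and does not show that RPD3 was absent.

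Each proneural gene was far from the nearest cluster. The gene ac, which with sc specifies sensory bristles, lay 89541 bp from a cluster in replicate 1 and 89609 bp in replicate 2. For sc the distances were 77814 and 77823 bp. For l(1)sc, which acts mainly in the embryonic nervous system, they were 64494 and 64503 bp. The distances of each of the 3 genes differed by under 0.1 kb between replicates. In the combined list ac was nearer to a cluster, at 74129 bp, with sc at 77759 bp and l(1)sc at 64439 bp. The gene ase, which marks neural precursors and is expressed in neuroblasts, was the closest, at 12135 bp in replicate 1 and 12144 bp in replicate 2. Thus 0 of 4 proneural genes were touched. Over the 388 genes of the distal 3.2 Mb of X, 62.9% were touched in both replicates (67.8% in replicate 1, 64.7% in replicate 2 and 70.6% in the combined list). Among the 145 protein-coding genes of that stretch up to 2000 bp long the share was 46.2%, and ase, at 2430 bp, exceeds that length. The 4 proneural genes lie in 1 cluster-free stretch, so they are not independent observations.

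The other genes of the window were untouched too. They included y, the pigmentation gene yellow, whose nearest cluster was 76019 bp away in replicate 1 and 76087 bp in replicate 2, and lncRNA:yar, the noncoding gene between y and ac, at 81909 and 81977 bp. In the combined list y was 60607 bp and lncRNA:yar 66497 bp from a cluster. Pgcl, at the other side, was 37863 and 37872 bp from a cluster in replicates 1 and 2. CG32816 is annotated over 154151 bp and spans the whole complex, so its values cannot be told apart from those of the genes inside it. It held no cluster either.

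The achaete-scute window lay within a longer empty stretch that both replicates bounded in nearly the same way. In replicate 1 it extended from 174523 to 369344, and replicate 2 put it at 174455 to 369353, 195 kb in each. On X it ranked 8 by length among 999 such stretches in replicate 1 and 8 among 1007 in replicate 2, so 0.801% and 0.794% were at least as long. In the combined list, which had a further low-scoring cluster at CG3777 and CG13375 (188846 to 189934, score 0.41), the stretch was 179 kb and ranked 5 of 1285. It contained all 4 proneural genes, ase included, in each list, and 13 protein-coding genes in full in each replicate.

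The clusters on its borders touched several genes on each side, ewg and ebo among them. On the telomere side the last cluster (172116 to 174522 in replicate 1, 171901 to 174454 in replicate 2) touched ewg, CG3777 and mir-980. The gene ewg encodes a transcription factor needed in neurons and muscle. On the other side the first cluster began at 369345 in replicate 1 and at 369354 in replicate 2. In both it touched CR18275, CG13373 and ebo, named for its role in the ellipsoid body of the brain. The 7902 bp cluster of replicate 1 also touched CG32817, CR18166, CG3176 and CG18273. Beyond these clusters, elav, which encodes the RNA-binding protein used as a marker of neurons, was 37.4% covered in replicate 1 and 27.4% in replicate 2. The 80 kb window next to the achaete-scute window on that side was 34.9% covered in replicate 1 and 28.2% in replicate 2. The one on the telomere side had no covered base in either replicate and was 2.8% covered in the combined list.

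**Figure D5:**
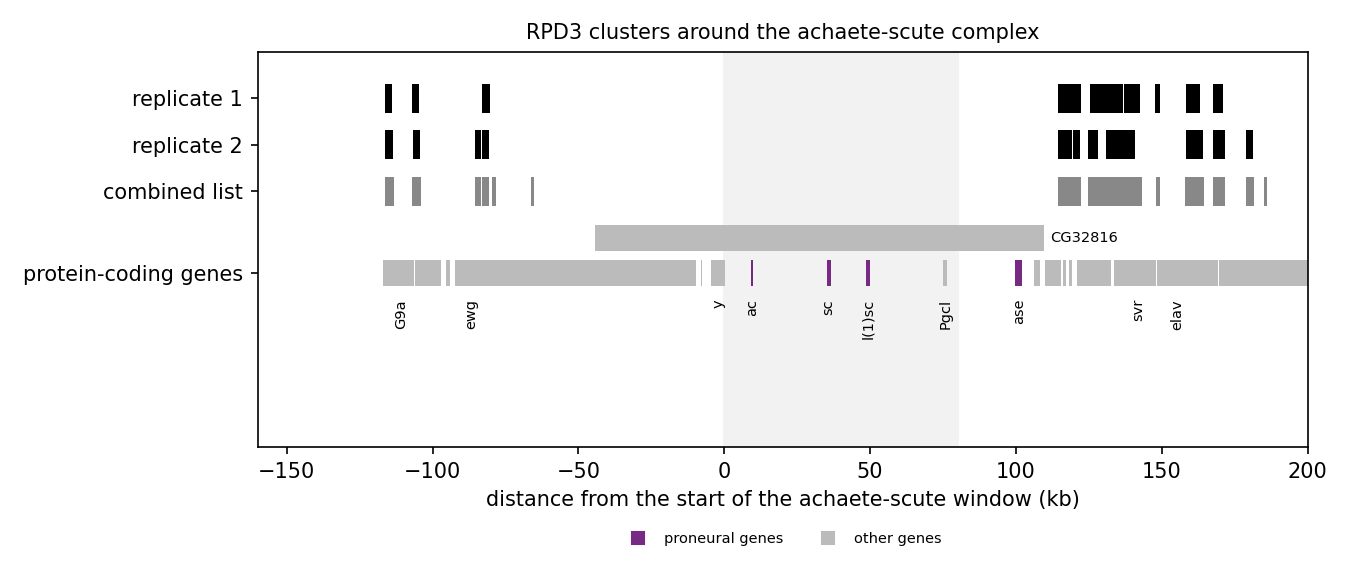
Map of the achaete-scute window (grey background) and its surroundings, with distance from the start of the window in kb. RPD3 clusters of replicate 1, replicate 2 and the combined list are shown above, and protein-coding genes below, with CG32816 on a row of its own: the stretch that holds ac, sc, l(1)sc and ase has no cluster, and clusters resume 12.1 kb beyond ase.

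Other windows of this size on X were empty too. Of 280 windows of 80 kb, 13.9% had no covered base in replicate 1, 10.7% in replicate 2 and 9.64% in both (7.5% in the combined list). The median window was 11.9% covered in replicate 1 and 11.7% in replicate 2. The achaete-scute window held 5 protein-coding genes by midpoint, against a median of 7 over the 288 windows of the same size on the release 6 X, on which genes were counted here, and 41% of those 288 held as few or fewer.

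Set side by side, the E(spl) window was covered by 10.8% ± 0.0731 (SD, n = 2) and the achaete-scute window by 0% in each replicate. The difference was 10.9 percentage points in replicate 1 and 10.8 in replicate 2. An exact paired permutation test over 2 replicates cannot give a two-sided p below 0.5, so none was run. Windows of 1 arm differ by as much: the middle 50% of 3R windows ran from 3.63% to 22.7% covered in replicate 1 and from 5.28% to 22.9% in replicate 2. The difference was carried by gro, E(spl)m8-HLH and the genes beyond gro, and the 11 other genes of the E(spl) complex resembled ac, sc, l(1)sc and ase in having no cluster.

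Genes that act with these complexes were taken from a list of 11 on 3R and distal X that covers Notch signalling, corepression and neural identity, and 8 of the 11 were touched in both replicates. The corresponding shares are 50.5% of all 3R genes and 62.9% of distal X genes. The listed genes on distal X, N, sgg, elav and arm, were all touched in both replicates. On 3R, H, neur, Nct and CtBP were touched in both, and Delta, Ser and ato were not. Most listed genes are much longer than those of the complexes and so meet a cluster more easily. No share over genes of like length was computed, so the count is not read as enrichment. N, the receptor Notch, held clusters over 3.86% of its 37352 bp in replicate 1 and 4.1% in replicate 2. Its ligand Delta held none in replicate 1 and 1306 bp in replicate 2, in a cluster with a score of 0.56. The other ligand, Ser, held none, with the nearest cluster 5329 bp away in replicate 1 and 5119 bp in replicate 2.

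Of the other listed genes, H encodes Hairless, the adaptor that joins Groucho and CtBP to the Notch effector Su(H), and 51.3% of it lay in clusters in replicate 1 and 25.5% in replicate 2. CtBP, itself a corepressor gene, was 39.9% and 48.6% covered. The gene neur, which encodes the ubiquitin ligase Neuralized, was 10.7% and 18.3% covered. Nct, for the gamma-secretase subunit Nicastrin, was 88.3% and 46.3% covered. The kinase gene sgg was 40.2% and 44.5% covered, and arm, which encodes the fly beta-catenin, 45.6% and 26.1%. The proneural gene ato, which acts in eye and ear and lies on 3R outside both complexes, was untouched, with the nearest cluster at 7336 bp in replicate 1 and 12747 bp in replicate 2.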

How the data were processed

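Files were the authors' deposited lists of enriched clusters, 1 per ChIP sample and 1 combined, on FlyBase release 5 per the file headers. Alignment software was Bowtie 0.12.7, per the submitters' processing notes. Nothing used here states which program called clusters, at what threshold, at what depth, or how the combined list was made. Inputs were not analysed here. The score deposited by the authors was read as log2 from its values: 2 to the power of the 5 highest combined scores are 9 to 13 times 1 step. Only the combined list was checked in this way, and that check does not show what the score is measured against. The list's 1 depleted region was left out.

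Windows, members and gene lists were chosen with earlier results of these data known. Named were the 9 members, all genes in the windows and the pathway list. Genes came from a RefSeq table of release 6. Subtracting 4174278 on 3R and 105967 on X placed them on release 5, and no gene coordinate is printed. No chain file was used. As a check, gene ends inside clusters made up 39.8% on 3R and 52% on distal X (replicate 1), against 29.6% and 37.5% with genes moved 2000 bp left and 29.2% and 35.6% with genes moved 2000 bp right. Shifts of 500 bp changed the shares little, so placement is checked only to about 1000 bp. The table gives no strand, so the planned test of gene starts became overlap with the gene body (at least 1 bp). Planned promoter motifs and protein features were not run, as no sequence was used here.

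Coverage was compared with non-overlapping windows laid from each locus. The functions for covered bases, summed length of cluster-free stretches and overlap with gene bodies recovered simulated answers exactly. Those for distances and for the alternative settings were not checked in this way. Alternatives are in the closing section. The work used Python 3.11.15, pandas 2.3.3, numpy 2.4.6 and matplotlib 3.10.9.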

Additional observations from a re-analysis of the deposited data

How the results depend on the processing

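The achaete-scute window had no covered base and no touched proneural gene under every alternative run for it. Only the combined list could have differed. The other settings drop clusters or a replicate, or reach or shift by at most 1000 bp. The nearest cluster to a proneural gene was 12.1 kb away in replicates 1 and 2. The covered share of the E(spl) window, and with it the difference between the windows, was 13% in the combined list and 8.12% when clusters with at least 50% of their length inside were counted in full, and 10.8% to 10.9% with either replicate left out. The share of 3R windows covered at least as much moved from 54.5% on average to 35.9% in the better-scoring 50% of each list, 58.2% in the combined list and 61.1% by number of clusters. The share of X windows without a covered base, 12.3% on average, was 26.4% in the better-scoring 50% and 7.5% in the combined list, and 10.7% to 13.9% with either replicate left out. The first rise follows from using fewer clusters. For the E(spl) genes, the 2 touched genes were gro and E(spl)m8-HLH throughout, except that only 1, gro, was left with a constant 1000 bp larger. The cluster-free stretch in the better-scoring 50% of each list was 103 kb at E(spl) and 209 kb at achaete-scute, as fewer clusters bound it, and 179 kb at achaete-scute in the combined list. The pathway list gave 6 to 9 touched genes, against 8. The 8.12% follows from dropping clusters that lay mostly beyond the window. In replicate 1 this was the 9573 bp cluster, which left only the 3336 bp cluster at E(spl)m8-HLH and gro. In replicate 2, where that stretch was split, the 6317 bp cluster was dropped and those of 3147 and 3257 bp were kept. The 8.12% is thus a mean of unlike replicates. Why the remaining values moved was not tested. Alternatives for the constant, for gene ends, for X windows without a covered base and for the stretches were chosen after seeing the data. No paired analysis was possible because ChIP and input share the replicate numbers and no input values were used, so a fit with a replicate block could not be made. The loci were instead set against each other within each replicate. Depth limits are unknown, since clusters carry no read counts.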
